A study of Mus musculus with 15 samples.

Results

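Gpx6, Gpr110, Susd4, Cela1 and Dsg1c are 5 of the 20325 genes listed in each liver library, chosen by their lower read counts in conventionally raised (ConvR) than in germ-free (GF) mice fed HF/HS, a high-fat, high-sucrose diet. The choice rested on 6 of 15 livers, so differences were tested between groups of the other 9, from chow-fed mice. All 15 livers were fitted together, so the 6 used for the choice also entered the filter, the scaling and the estimate of spread. All mice were male C57BL/6J, an inbred laboratory strain without engineered alleles, and were 19 weeks old, with 3 mice in each of 5 groups. GF mice were kept free of living microorganisms, and ConvR mice acquired their microbiota from birth. Conventionalized (ConvD) mice began as GF mice and were gavaged at 15 weeks with the cecal contents of ConvR donors kept on chow, 4 weeks before their livers were taken. The mice ate chow or HF/HS from the age of 3 weeks. Chow had 23.7% of its energy from fat, 53.2% from carbohydrate and 23.1% from protein. HF/HS had 44.6% from fat, 40.6% from carbohydrate and 14.8% from protein. Both diets were given to GF and ConvR mice, but only chow to ConvD mice. Mice were caged by group, and GF and ConvR mice lived in separate isolators, so that isolator or cage and colonization cannot be told apart. The labels do not say which mice shared a cage.

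The liver receives blood from the gut through the portal vein, and with it microbial products and microbially altered bile acids, and its transcriptome is known to differ between GF and colonized mice. The 5 genes belong to unrelated families. Glutathione peroxidases such as Gpx6 reduce peroxides with glutathione, and the rodent Gpx6 protein carries cysteine in place of the selenocysteine of its best-known relatives. Gpr110, now named Adgrf1, is an adhesion G protein-coupled receptor, a class with long extracellular regions that are cleaved close to the membrane. Susd4 is a membrane protein with sushi domains, the fold of complement regulators, and is known as a complement inhibitor. Cela1 is a serine protease of the chymotrypsin-like elastase family, whose other members are digestive enzymes of the pancreas. Dsg1c is a desmoglein, a cadherin of the desmosomes that join epithelial cells, and has near-identical paralogs in Dsg1a and Dsg1b.

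The RefSeq table (build GRCm38.p6) held a start site for 4 of the 5 genes, Gpr110 under the name Adgrf1. The 250 bases before the start are shown for the 2 genes with the highest levels, which differ in promoter type, and for Gpx6, the member with the largest log2 fold change between ConvR and GF mice on chow. All are written 5′ to 3′ on the strand of the gene, and capitals mark matches to the motifs named next.
Cela1, chr15:100687921-100688170, minus strand: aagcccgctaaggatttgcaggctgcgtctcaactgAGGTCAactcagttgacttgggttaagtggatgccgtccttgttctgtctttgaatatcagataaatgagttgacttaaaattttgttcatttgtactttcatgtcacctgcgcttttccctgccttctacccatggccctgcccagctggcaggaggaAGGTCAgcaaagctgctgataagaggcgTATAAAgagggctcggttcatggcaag
Susd4, chr1:182763966-182764215, plus strand: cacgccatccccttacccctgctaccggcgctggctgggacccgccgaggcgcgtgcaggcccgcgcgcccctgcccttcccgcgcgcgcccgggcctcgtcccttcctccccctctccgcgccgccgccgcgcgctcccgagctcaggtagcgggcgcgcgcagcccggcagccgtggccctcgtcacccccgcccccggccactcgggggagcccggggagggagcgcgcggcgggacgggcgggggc
Gpx6, chr13:21311953-21312202, plus strand: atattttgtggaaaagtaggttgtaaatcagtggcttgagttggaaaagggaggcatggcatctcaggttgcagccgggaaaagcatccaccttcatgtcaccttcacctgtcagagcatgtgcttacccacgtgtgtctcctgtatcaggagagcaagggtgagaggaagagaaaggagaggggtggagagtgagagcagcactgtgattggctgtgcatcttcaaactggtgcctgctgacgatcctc
A set of 4 motifs, chosen with the results known, was searched on both strands. TATAAA, the TATA box, was present in 12.4% of 32851 promoter windows of this length, and AGGTCA, a nuclear receptor half-site, in 14%. TTCNNNGAA, the STAT5 site, was present in 7.02% and CAAAGTCCA, an HNF4A site, in 0.384%. The Cela1 window held a TATA box that began 27 bases before the start and 2 half-sites that began 214 and 55 bases before it, and none of these matches overlapped. No match to the 4 motifs lay in the windows of Susd4, Gpx6 or Gpr110. The Susd4 window was 82.8% G and C, against 48.0% for Cela1, 50.8% for Gpx6 and 52.0% for Gpr110. Susd4 had 2 start sites in the table, of which the first was used.

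Libraries held 14737578 to 21794811 estimated read counts, and 12377 genes, with all 5 members among them, passed the filter on low counts. Levels are given as CPM, read counts scaled to a common effective library size by the TMM method, or as TPM, which also divides by gene length. Hepatocyte markers were abundant in every library, with Alb at 20163 TPM or more and Hnf4a at 181 TPM or more. Among the chow mice, acute phase transcripts were very high in ConvR mice 1 and 2 (Saa2 at 9887 and 12790 CPM) and lower in ConvR mouse 3 (695 CPM). In the other 12 libraries Saa2 lay between 4.25 and 53.8 CPM. Fos stood at 129 CPM in GF chow mouse 1 and at 28.9 CPM in GF chow mouse 2, and did not pass 5.95 CPM elsewhere. Ranks of relative expression and of gene length correlated within a library at -0.341 to 0.018 in the GF and ConvR chow libraries and 0.077 to 0.277 in the other 9. Chow calls of genes named below are also given without ConvR chow 1 and 2 together.

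On HF/HS, the comparison used to choose the genes, the 5 members were 2.52- to 5.61-fold lower in ConvR than in GF livers, and for each of them all 3 ConvR values lay below all 3 GF values. These values are a description, without a test. Over all 12377 genes, 0.735% were called lower in this comparison and 14.6% had ranges that did not overlap in that direction. When the 81 called genes without overlap whose mean reached 2 CPM were ordered, Gpx6, Gpr110, Susd4, Cela1 and Dsg1c ranked first, second, sixth, seventh and eighth by log2 fold change. The genes ranked between them, Enho (-1.71), Cyp2c54 (-1.60) and Slc39a4 (-1.50), are not members. The last member inside, Dsg1c, had a log2 fold change of -1.33 and the first gene outside, Igfbp2, -1.22.

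Gpx6 stood at 9.01, 5.83 and 4.66 CPM in GF mice 1, 2 and 3 on HF/HS, and at 1.04, 1.68 and 0.773 CPM in ConvR mice 1, 2 and 3. Its means were 6.50 ± 2.25 and 1.16 ± 0.468 CPM (SD, n = 3), a log2 fold change of -2.49 ± 0.33 (standard error). The highest value of all 15 libraries was that of GF mouse 1 on HF/HS. Gpr110 stood at 10.5, 14.2 and 9.14 CPM in these GF mice and at 0.994, 0.940 and 4.37 CPM in the ConvR mice. ConvR mouse 3 stood above the other 2 ConvR mice. The log2 fold change of Gpr110 was -2.42 ± 0.43, and it was -3.54 without ConvR HF/HS mouse 3.

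Susd4 was nearly equal in the 3 GF mice on HF/HS, at 24.6, 25.3 and 25.3 CPM, and uneven in the ConvR mice, at 7.39, 5.49 and 13.8 CPM. Its log2 fold change was -1.49 ± 0.22. Cela1 stood at 26.8, 30.2 and 32.7 CPM in GF and at 11.0, 8.46 and 15.4 CPM in ConvR mice, a log2 fold change of -1.36 ± 0.25. Dsg1c stood at 14.2, 13.6 and 16.2 CPM in GF and at 4.71, 6.18 and 6.55 CPM in ConvR mice, a log2 fold change of -1.33 ± 0.27. Among these ConvR mice, mouse 3 had the highest value for Gpr110, Susd4, Cela1 and Dsg1c, and the lowest for Gpx6.

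**Figure D1:**
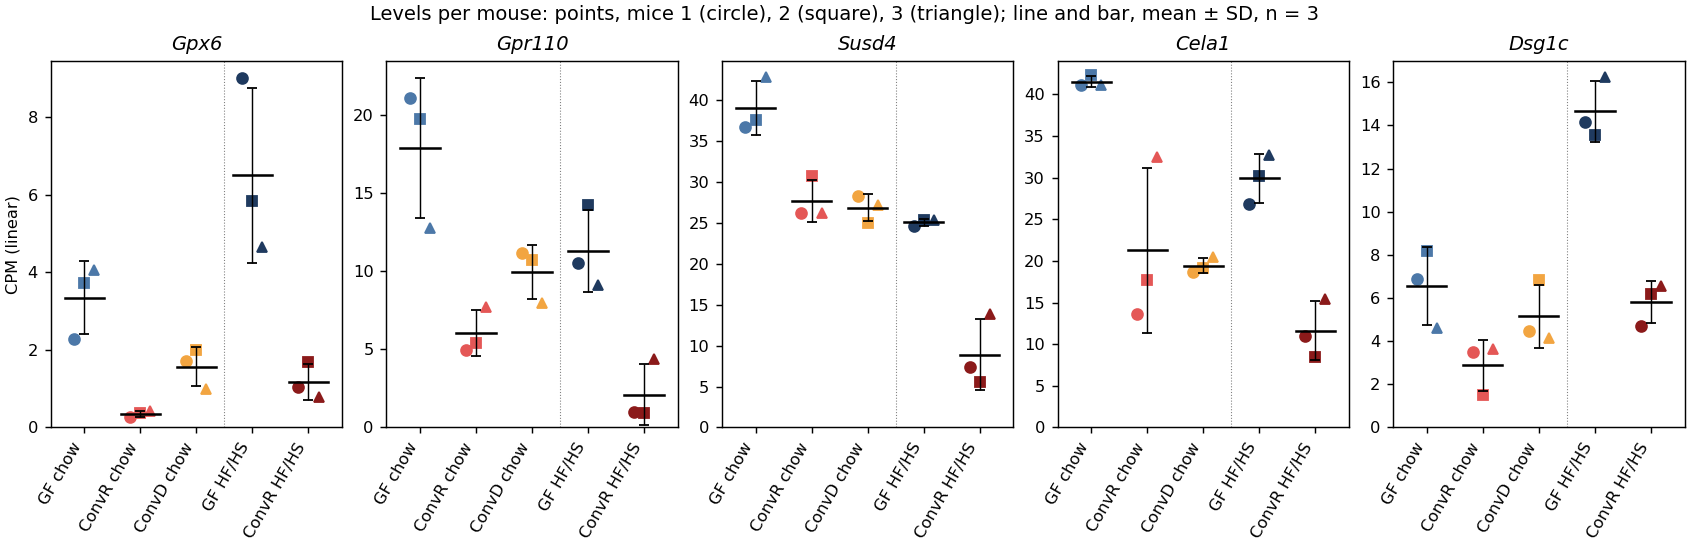
CPM of each member in each mouse (y axis, linear, from 0) by group (x axis), with the mean as a line and the SD as a bar. In every panel the 3 ConvR mice lie below the 3 GF mice on each diet, while ConvD mice on chow lie between the groups or overlap with 1 of them.

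The chow-fed ConvR and GF mice served to see whether the lower levels with a microbiota were also found in mice that had not been used to choose the genes. Gpx6, Gpr110, Cela1 and Dsg1c were called lower in ConvR livers, 4 of 5 members, and Susd4 was lower by a smaller amount that did not pass the test. Over all genes, 2.17% were called lower. For 5 of 5 members the 3 ConvR values lay below the 3 GF values, which held for 9.74% of all genes. The median log2 fold change of the members was -1.17, against -0.0033 over all genes. Fitted alone, without the other 9 libraries, the ConvR and GF chow mice gave no call for a member, with adjusted p of 0.0762 for Gpx6, 0.118 for Gpr110, 0.256 for Cela1 and 0.262 for Dsg1c. Adjusted p values given for single results are from the quasi-likelihood test of edgeR unless another test is named. Benjamini-Hochberg adjustment was over the genes that passed the filter, 12377 in the main fit. The series gives the 3 mice of a group as biological replicates. The p values set group differences against the spread between mice within groups, so they do not tell colonization from isolator or cage.

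Gpx6 was nearly absent from ConvR chow livers. It stood at 2.27, 3.71 and 4.06 CPM in GF mice 1, 2 and 3 and at 0.275, 0.362 and 0.422 CPM in ConvR mice, the latter from 5, 6.5 and 7 estimated counts. It was 9.48-fold lower (log2 fold change -3.24 ± 0.43, adjusted p = 0.00286). Gpx6 passed the filter through the other groups, since its counts in ConvR chow livers were below the minimum of 10. Its call remained when any single library was left out, with log2 fold changes between -3.44 and -3.08, and ended without ConvR chow 1 and 2 together, which left 1 ConvR chow mouse assumed to vary like the other groups (log2 fold change -2.99, adjusted p = 0.267). On log2(TPM + 1) values, a scale that understates changes of low genes, the difference was -1.85 (limma, adjusted p = 0.00383).

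Gpr110 stood at 21.1, 19.8 and 12.8 CPM in GF and at 4.95, 5.42 and 7.72 CPM in ConvR mice on chow. It was 2.96-fold lower (log2 fold change -1.57 ± 0.39, adjusted p = 0.0383). In bulk tissue, fewer cells of a type and less RNA per cell cannot be told apart. The Gpr110 call ended without GF chow 1 or 2 or ConvR chow 1 or 2, with adjusted p of 0.0832, 0.0668, 0.148 and 0.154, and without both of these ConvR mice (log2 fold change -1.21, adjusted p = 0.58). With limma after removal of the trend of expression on gene length, the call also ended (adjusted p = 0.0525).

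Cela1 stood at 41.2, 42.3 and 41.1 CPM in GF mice and at 13.6, 17.7 and 32.5 CPM in ConvR mice on chow. The GF mice were nearly equal and the ConvR mice were not: mouse 3, the ConvR chow mouse with the least Saa2, had the most Cela1. Cela1 was 1.95-fold lower (log2 fold change -0.97 ± 0.25, adjusted p = 0.0417). Without ConvR chow 1 and 2 the log2 fold change was -0.35 (adjusted p = 0.655), and without ConvR chow 3 it was -1.41 (adjusted p = 0.000443). The part of the acute phase in this difference was not tested. Leaving out any other of the 6 libraries, GF chow 1, 2 or 3 or ConvR chow 1 or 2, ended the call, with adjusted p of 0.0754, 0.0664, 0.0631, 0.149 and 0.179.

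Dsg1c stood at 6.88, 8.17 and 4.59 CPM in GF and at 3.52, 1.51 and 3.62 CPM in ConvR mice on chow. It was 2.25-fold lower (log2 fold change -1.17 ± 0.30, adjusted p = 0.0406). Its call ended without GF chow 1 or 2 or ConvR chow 1 or 2, with adjusted p of 0.0832, 0.091, 0.0928 and 0.154, and without both of these ConvR mice (log2 fold change -0.85, adjusted p = 0.537). With limma-voom the adjusted p was 0.0581. Susd4 stood at 36.7, 37.6 and 42.8 CPM in GF and at 26.2, 30.7 and 26.2 CPM in ConvR mice. Its log2 fold change was -0.50 (95% interval from the fit -0.97 to -0.027, adjusted p = 0.175), so that it was lower in every ConvR mouse but was not called.

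A comparison of ConvD with GF chow mice addressed whether the levels also differed 4 weeks after adult colonization. The GF mice are those of the ConvR comparison, so the 2 comparisons share them. Cela1 was called lower in ConvD livers and the other 4 members were not called, where 3.34% of all genes were called lower. For 4 of 5 members the ranges did not overlap, as for 14.8% of all genes. The median log2 fold change of the members was -0.84, against -0.008 over all genes. Cela1 was nearly equal in the 3 ConvD mice, at 18.6, 19.2 and 20.4 CPM. It was 2.14-fold lower than in GF mice (log2 fold change -1.10 ± 0.25, adjusted p = 0.0253). Saa2 lay between 4.25 and 17.1 CPM in these ConvD mice, and between 5.03 and 12.6 CPM in the GF mice. Leaving out ConvD chow 1, 2 or 3 ended the Cela1 call, with adjusted p of 0.096, 0.0906 and 0.0738. The log2 fold changes then lay between -1.13 and -1.07. With limma after removal of the trend of expression on gene length, the adjusted p was 0.0522. Without ConvR chow 1 and 2 the call remained (-1.10, adjusted p = 0.0081).

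The other members had values between those of GF and ConvR mice or close to the ConvR mice. Gpx6 stood at 1.72, 1.99 and 0.998 CPM in ConvD mice 1, 2 and 3 (log2 fold change against GF -1.09, 95% interval -1.83 to -0.35, adjusted p = 0.0655). Gpr110 stood at 11.2, 10.8 and 7.99 CPM (-0.84, interval -1.66 to -0.012, adjusted p = 0.184). Susd4 stood at 28.3, 25.0 and 27.2 CPM (-0.54, interval -1.01 to -0.073, adjusted p = 0.134). Each of these 3 genes was lower in every ConvD mouse than in any GF mouse. Dsg1c stood at 4.46, 6.82 and 4.16 CPM and overlapped with the GF mice (-0.33, interval -0.95 to 0.29, adjusted p = 0.491).

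ConvD and ConvR mice on chow were compared to test directly whether adult and lifelong colonization differed for these genes. Gpx6 was called higher in ConvD than in ConvR livers, by 4.45-fold (log2 fold change 2.15 ± 0.46, adjusted p = 0.021), where 2.2% of all genes were called higher. Its call ended without ConvR chow 1 or 2 or ConvD chow 1 or 2, with adjusted p of 0.0822, 0.0961, 0.073 and 0.0964, and without both of these ConvR mice (log2 fold change 1.89, adjusted p = 0.411). It also ended with the 2 groups fitted alone (adjusted p = 0.0564) and with limma-voom (adjusted p = 0.0585). Gpr110 (log2 fold change 0.73, 95% interval -0.14 to 1.60, adjusted p = 0.277) and Dsg1c (0.84, interval 0.18 to 1.50, adjusted p = 0.108) were not called, although all 3 ConvD values of each lay above all 3 ConvR values. Such ranges were found for 3 of 5 members and for 15.1% of all genes. Susd4 (-0.045, interval -0.52 to 0.43, adjusted p = 0.92) and Cela1 (-0.13, interval -0.69 to 0.43, adjusted p = 0.789) were not called and their ranges overlapped. The signs of these last 2 turned under other scalings and with single mice left out. Without ConvR chow 1 and 2 the log2 fold change of Cela1 was -0.74 (adjusted p = 0.286).

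With ConvR and ConvD averaged, colonized chow mice were compared with GF chow mice in a single test. Gpx6 (log2 fold change -2.17 ± 0.31, adjusted p = 0.00655), Gpr110 (-1.20 ± 0.32, adjusted p = 0.046) and Cela1 (-1.03 ± 0.21, adjusted p = 0.0199) were called lower, 3 of 5 members, where 3.18% of all genes were. Susd4 (-0.52 ± 0.18, adjusted p = 0.0995) and Dsg1c (-0.75 ± 0.24, adjusted p = 0.0841) were not called. In 4 of 5 members, all but Dsg1c, the 6 colonized mice lay below the 3 GF mice, which held for 4.48% of all genes. The Gpx6 call remained when any of the 9 libraries was left out (adjusted p 0.00298 to 0.0239). It ended without ConvR chow 1 and 2 together (-2.04, adjusted p = 0.0747), as did the calls of Cela1 (-0.73, adjusted p = 0.0776) and Gpr110 (-1.02, adjusted p = 0.21). Cela1 also lost its call without GF chow 1 (adjusted p = 0.058) and with the 3 groups fitted alone (adjusted p = 0.0753). The Gpr110 call ended without GF chow 1 or 2, ConvR chow 1 or 2 or ConvD chow 1, 2 or 3, with adjusted p of 0.141, 0.0863, 0.0973, 0.0832, 0.0769, 0.0765 and 0.0915. With limma the Gpr110 call also ended on log2(TPM + 1) values (adjusted p = 0.058) and with the trend on gene length removed (adjusted p = 0.0837). Dsg1c was called without GF chow 3 (adjusted p = 0.0466) or ConvR chow 3 (adjusted p = 0.0494).

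**Figure D2:**
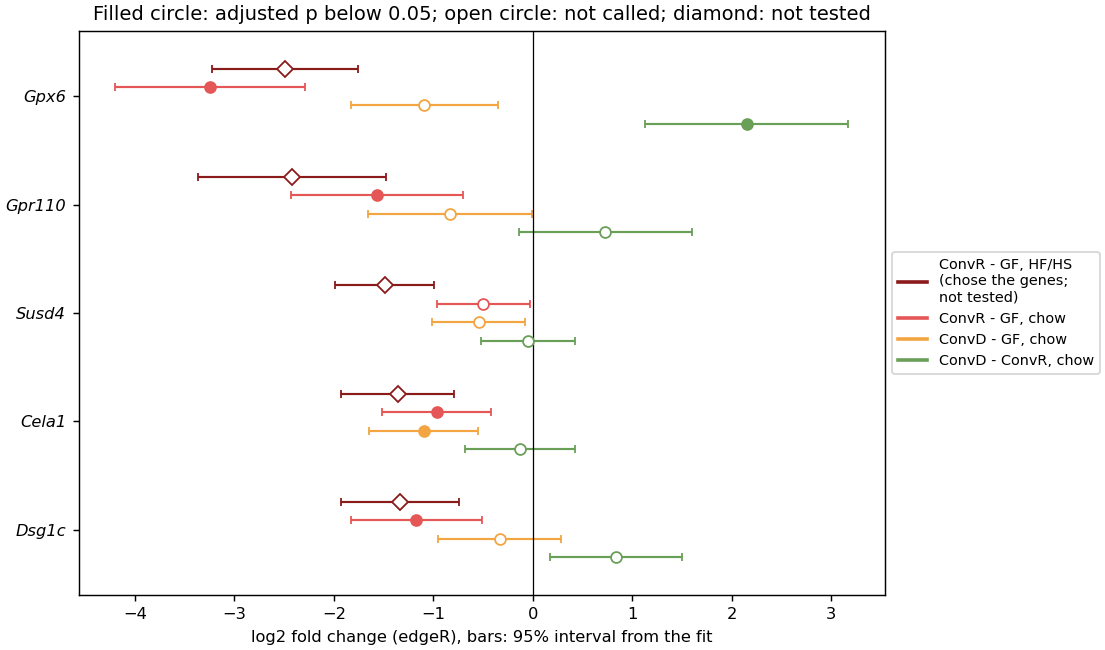
Log2 fold changes of the members (x axis) with 95% intervals from the edgeR fit (bars) in the HF/HS comparison that chose them (open diamonds, not tested) and in 3 chow comparisons (filled circles, adjusted p below 0.05; open circles, not called). All ConvR against GF and ConvD against GF values lie below 0, while for ConvD against ConvR only Gpx6, at 2.15, is called.

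Between the diets the members followed 2 patterns, which are described without a test because the HF/HS mice were used to choose the genes. Diet went with the correlation of expression and gene length, -0.341 to 0.018 in these chow libraries and 0.089 to 0.277 in the HF/HS libraries. The mice with very high Saa2 and the highest Fos were also on chow. The diet values were not refitted by other methods or with libraries left out, and the part of these features was not tested. Gpx6 and Dsg1c were higher on HF/HS than on chow both in GF mice (log2 fold changes 0.94 and 1.17) and in ConvR mice (1.70 and 1.01). Gpr110, Susd4 and Cela1 were lower on HF/HS in GF mice (-0.66, -0.64 and -0.47) and in ConvR mice (-1.51, -1.63 and -0.87). Ranges of Gpr110 in GF mice and of Cela1 in ConvR mice overlapped between the diets. The share of all genes with separate ranges between the diets was not counted. By mean CPM, Gpx6 and Dsg1c were lowest in ConvR chow mice (0.353 and 2.88 CPM) and highest in GF HF/HS mice (6.50 and 14.7 CPM). Gpr110, Susd4 and Cela1 were lowest in ConvR HF/HS mice (2.10, 8.90 and 11.6 CPM) and highest in GF chow mice (17.9, 39.0 and 41.5 CPM).

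Neighbours in these orders often overlapped. For Gpx6 the ranges of ConvR HF/HS and ConvD chow mice overlapped, and for Dsg1c those of ConvD chow, ConvR HF/HS and GF chow mice followed each other with overlap. For Susd4 the GF HF/HS, ConvD chow and ConvR chow means lay between 25.1 and 27.7 CPM, each overlapping the next. For Cela1 the ConvD chow mice overlapped the ConvR chow mice and these the GF HF/HS mice, and for Gpr110 the ConvD chow mice overlapped the GF HF/HS mice and these the GF chow mice. Per length, averaged over the 15 libraries, Cela1 was the most abundant member at 36.6 TPM, followed by Susd4 at 19.6, Gpr110 at 4.19, Dsg1c at 3.77 and Gpx6 at 3.39 TPM.

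**Figure D3:**
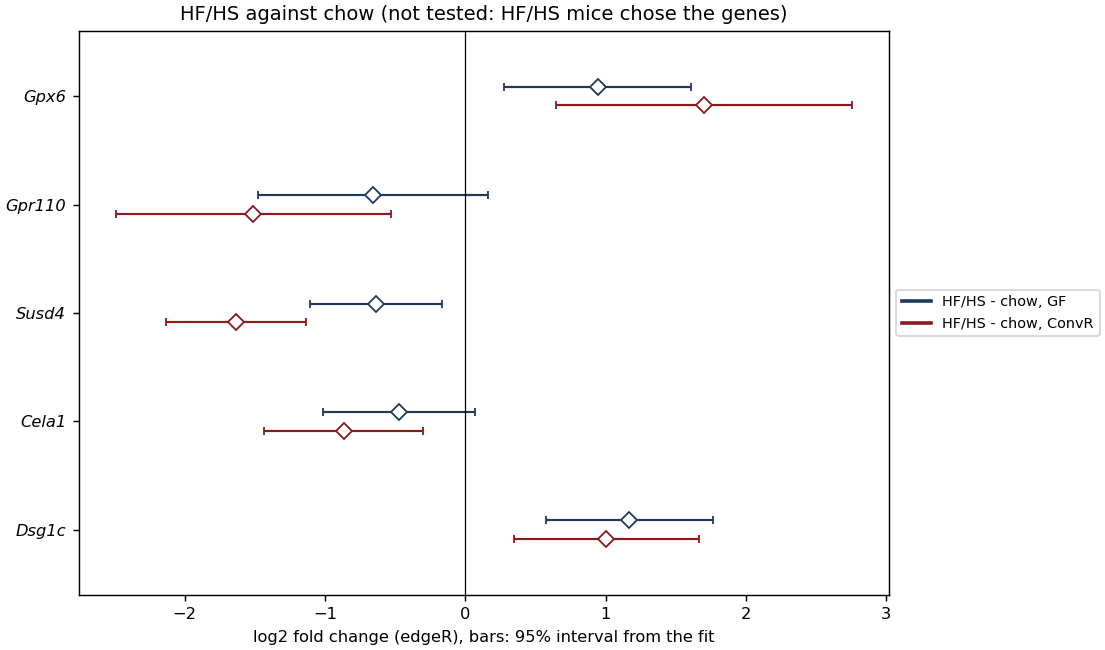
Log2 fold changes of HF/HS against chow (x axis) with 95% intervals from the edgeR fit (bars) in GF and in ConvR mice, without a test. Gpx6 and Dsg1c lie above 0 in both and Gpr110, Susd4 and Cela1 below 0 in both.

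Correlations of log2 CPM between members are descriptions, over libraries that share group, depth and scaling. Over the 15 libraries, Gpr110 followed Susd4 (Pearson r = 0.918) and Cela1 (0.879), and Gpx6 followed Dsg1c (0.832), while Susd4 and Dsg1c did not follow each other (-0.034). Over the 9 chow libraries, Gpx6 and Gpr110 had the highest value (0.889) and Susd4 and Dsg1c the lowest (0.265). After each group's mean was removed, Gpr110 still followed Susd4 (0.739) and Cela1 (0.612) over the 15 libraries, while Gpx6 and Dsg1c did not (0.015). Gpr110 and Susd4 varied most among the ConvR HF/HS mice, where the SD was 93.5% and 49.1% of the mean. Mouse 3 was highest there for both genes, and these mice had been used to choose them. Whether Gpr110 followed Susd4 or Cela1 without that group was not tested.

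The genes most like each member, by Pearson's r of log2 CPM over the 15 libraries among 9883 named genes averaging 2 CPM or more, mostly differed by less between groups. For Susd4 they were Mup1, a major urinary protein (0.948), the vasopressin receptor gene Avpr1a (0.941) and Lbr, the lamin B receptor (0.938). Mup1 stood at 612, 148 and 1728 CPM in ConvR HF/HS mice 1, 2 and 3, and at 3161 ± 399 CPM in GF HF/HS mice. The order of these ConvR mice was that found for Gpr110, Susd4 and Cela1. Reads of Mup1 could be split wrongly among near-identical Mup genes. On chow Mup1 stood at 4844 ± 1173 CPM in GF and 4691 ± 478 CPM in ConvR mice, with ConvD mice lower at 3031 ± 397 CPM, and over the chow libraries alone its r with Susd4 was 0.524.

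For Gpr110 they were Maml3, a Notch coactivator (0.934), the phospholipase Gpld1 (0.934) and Anubl1 (0.924). For Cela1 they were Cldn5, a tight junction claudin of endothelium (0.941), Upb1, an enzyme of pyrimidine breakdown (0.933), and the carboxylesterase Ces3a (0.919). For Gpx6 they included the thiamine transporter Slc19a2 (0.884) and Serpina1b, an alpha-1 antitrypsin gene (0.866). For Dsg1c they were Pdcd4, a translation inhibitor (0.909), Rassf3 (0.903) and the kinase Camk1d (0.901). Camk1d stood at 171 CPM in GF and 96.2 CPM in ConvR mice on HF/HS, and Slc19a2 at 169 and 114 CPM.

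Of the other 7 glutathione peroxidases, 5 passed the filter, and in ConvR against GF mice on chow 1 was higher, 0 lower and 4 not called. The one called, Gpx3, the plasma enzyme, was higher in ConvR livers (log2 fold change 1.22 ± 0.27, adjusted p = 0.0282) and lower in ConvD than in ConvR livers (-1.61 ± 0.28, adjusted p = 0.0103). It stood at 8.96, 13.7 and 5.07 CPM in ConvR chow mice 1, 2 and 3 and at 3.58, 4.51 and 3.77 CPM in GF chow mice, so that the 2 mice with very high Saa2 also had the most Gpx3. Without these 2 mice neither difference was called (0.35, adjusted p = 0.677, and -0.74, adjusted p = 0.35). Over all genes, 23.4% had an unadjusted p below 0.05 in ConvR against GF mice on chow and 15.2% on HF/HS, beside which the unadjusted counts of the gene lists are to be read. On HF/HS 0 of 5 were called, with 2 at an unadjusted p below 0.05, and the list's median was 0.31, against -0.0074 over all genes. Gpx1, the main peroxidase of hepatocytes, averaged 1801 TPM and Gpx4, which reduces lipid peroxides, 303 TPM, far above Gpx6 at 3.39 TPM. Gpx5, a close relative of Gpx6, is listed at 0 in all 15 libraries.

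Among the other adhesion receptors, 17 of 30 were tested. In ConvR against GF mice 0 were called on chow, with 2 at an unadjusted p below 0.05, and 0 on HF/HS, with 4 at an unadjusted p below 0.05, by edgeR. In ConvD against GF mice 1 was higher and 0 lower: Gpr64 averaged 1.69 ± 0.0768 CPM in ConvD and 0.664 ± 0.314 CPM in GF mice (log2 difference 1.31 ± 0.35, adjusted p = 0.0428), a call that ended without ConvR chow 1 and 2 in the fit (adjusted p = 0.0511). Of the complement regulators and sushi domain proteins other than Susd4, 14 were tested, and 3 were higher, 0 lower and 11 not called in ConvR against GF mice on chow. Among them were C4bp, the C4b-binding protein (0.59 ± 0.13, adjusted p = 0.0273), and Cd55, which speeds the decay of complement convertases (0.60 ± 0.13, adjusted p = 0.0264). The C4bp level was 785 ± 171 CPM in ConvR chow mice, the group that also held the high Saa2, against 522 ± 13.1 CPM in GF chow mice. Neither C4bp (0.18, adjusted p = 0.638) nor Cd55 (0.60, adjusted p = 0.443) was called without ConvR chow 1 and 2. In ConvD against GF mice Cd55 was called higher (0.63 ± 0.13, adjusted p = 0.0189, or 0.0277 without ConvR chow 1 and 2) and 13 were not called. On HF/HS 0 of 14 were called by edgeR, with 0 at an unadjusted p below 0.05.

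Cela1 was present without the other digestive enzymes of the pancreas. Of 18 exocrine pancreas markers, 5 had no count in any library, among them Cpb1, Clps and Ptf1a, and Cpa1 was at 0 in 13 and Pnlip in 14 of 15 libraries. The highest value of any of them in any library was 1.22 TPM, for Cela2a, while Cela1 lay between 15.7 and 61.5 TPM. The summed level of the markers was 1.15 to 1.30 TPM in GF chow, 0.67 to 1.47 in ConvR chow, 0.45 to 0.93 in ConvD chow, 0.58 to 1.50 in GF HF/HS and 0.46 to 2.38 TPM in ConvR HF/HS mice. Cela2a, the only marker and the only other elastase that could be tested, was not called in ConvR against GF mice on chow (log2 fold change -0.36, adjusted p = 0.662) or on HF/HS (-1.86, adjusted p = 0.0987). It was not called in ConvD against GF mice either (-1.40, adjusted p = 0.104). Its ConvD values on chow and its ConvR values on HF/HS all lay below the GF values of that diet, at counts of 13 or fewer.

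Dsg1c values are uncertain where RSEM divided reads among the desmoglein 1 genes: its estimated counts were fractional in all 15 libraries, whereas those of Gpx6 were whole, within 0.005, in 13. Dsg1c had the highest level of the 3, with 3.77 TPM on average against 0.187 for Dsg1a and 0.242 for Dsg1b. Dsg1b stood at 0.810, 1.31 and 1.05 CPM in GF and at 0.259, 0.346 and 0.137 CPM in ConvR mice on HF/HS. Its log2 fold change was -2.08, given without a test because its reads may be shared with Dsg1c, which was chosen on this comparison. Dsg1a stood at 1.27, 1.10 and 1.63 CPM in these GF and at 0.432, 0.544 and 0.682 CPM in these ConvR mice (-1.26, also without a test). On chow, in ConvR against GF mice, neither Dsg1a (-1.09, adjusted p = 0.271) nor Dsg1b (-0.95, adjusted p = 0.163) was called.

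**Figure D4:**
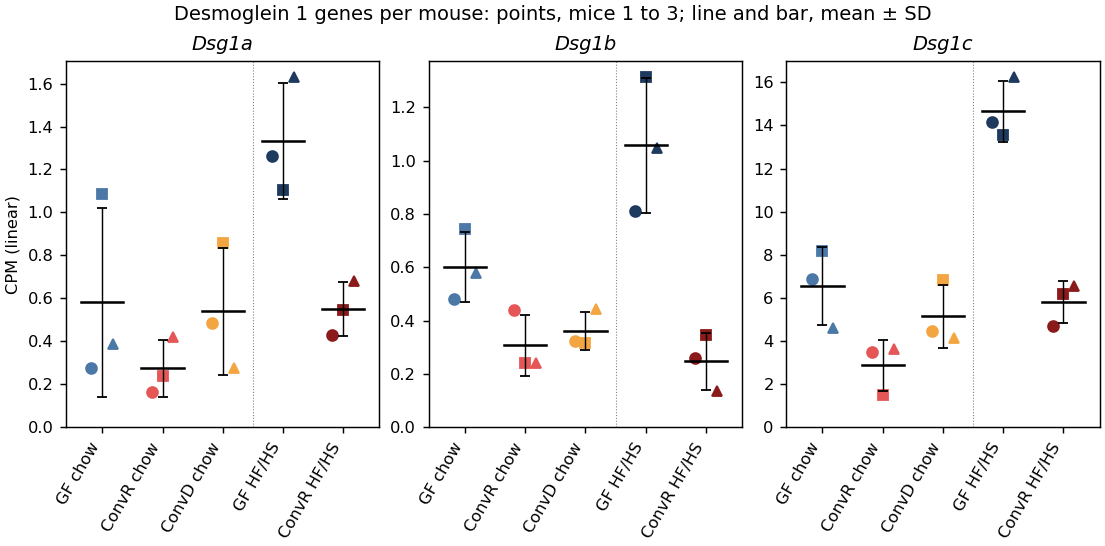
CPM of the 3 desmoglein 1 genes in each mouse (y axes, linear, from 0, with a scale for each gene) by group (x axis), with the mean as a line and the SD as a bar. Dsg1c lies far above its paralogs, and in each panel the 3 ConvR HF/HS mice lie below the 3 GF HF/HS mice.

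Among other desmosome genes, of 11 tested, Dsc2, a desmocollin, was called lower in ConvR against GF mice on chow (-0.54 ± 0.14, adjusted p = 0.0386), 10 were not called, and the median was 0.004. Dsc2 was not called without ConvR chow 1 and 2 (-0.71, adjusted p = 0.317). In ConvD against ConvR mice 3 were higher, among them Dsp, the plaque protein desmoplakin (0.73 ± 0.11, adjusted p = 0.00681), and without ConvR chow 1 and 2 none of these 3 was (Dsp 0.68, adjusted p = 0.226). Dsp was also higher in ConvD against GF mice (0.59 ± 0.11, adjusted p = 0.0111, or 0.0155 without those mice). The calls of these desmosome genes were not checked with the trend of expression on gene length removed. Of the 9 other than Dsg1a and Dsg1b, 1 was higher on HF/HS, Pkp4 (0.39 ± 0.085, adjusted p = 0.0346), and 0 lower. Markers of stratified epithelium, where Dsg1 genes are best known, were near 0: 3 of 12 had no count, Krt14 was at 0 in 14 libraries, and the highest value was 1.14 TPM, for Krt10. Their summed level was 1.27 to 1.43 TPM in GF HF/HS and 2.04 to 2.18 TPM in ConvR HF/HS mice. On chow it was 1.51 to 2.13 TPM in GF, 1.13 to 1.79 in ConvR and 1.34 to 1.75 in ConvD mice.

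Mup genes belong to the sex-biased liver genes, which are known to follow the pattern of growth hormone release. Of 26 male-biased genes, 0 were called by edgeR in ConvR against GF mice on chow, with 5 at an unadjusted p below 0.05, and 0 on HF/HS, with 13 at an unadjusted p below 0.05. Their median log2 fold changes were -0.34 and -0.53, against -0.0033 and -0.0074 over all genes. On HF/HS 9 of 26 had ConvR values all below the GF values, beside 14.6% of all genes, among them Hsd3b5 (-1.44, adjusted p = 0.132) and Slco1a1 (-0.90, adjusted p = 0.111). Of 14 female-biased genes tested, 2 were higher and 0 lower on chow, Cyp39a1 (2.14 ± 0.23, adjusted p = 0.000742) and Cyp17a1 (2.41 ± 0.58, adjusted p = 0.0351). Cyp39a1 was the only one called on HF/HS (0.85 ± 0.19, adjusted p = 0.043). The median log2 fold change of these 14 genes was -0.38 on chow and 0.11 on HF/HS. Without ConvR chow 1 and 2 the chow call of Cyp39a1 remained (2.01, adjusted p = 0.0459) and that of Cyp17a1 ended (0.53, adjusted p = 0.828). Of 12 hepatocyte markers 0 were called by edgeR in either comparison, with 7 and 5 at an unadjusted p below 0.05 and medians of -0.31 and -0.42. On HF/HS 8 of these 12 markers had ConvR values all below the GF values, again beside 14.6% of all genes. Of 12 Kupffer cell markers, 2 were called higher on chow, Cd163 (1.12 ± 0.22, adjusted p = 0.0195) and Cd68 (0.74 ± 0.19, adjusted p = 0.0439), and of 7 cholangiocyte markers 0, with 2 at an unadjusted p below 0.05. Neither Cd163 (0.53, adjusted p = 0.58) nor Cd68 (0.39, adjusted p = 0.663) was called without ConvR chow 1 and 2. The part of these cell types in the members' levels was not tested.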

How the data were processed

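Liver RNA of 15 mice was sequenced from stranded mRNA libraries, per the labels' protocols. Bowtie2, RSEM 1.2.23 and the mouse build mm9 are named for the authors' processing, per the submitters' processing notes. The deposited expected counts are RSEM estimates per gene, unscaled between libraries. The authors also deposited TPM, which corrects for gene length and depth within a library, and FPKM, which was not used. Libraries were joined by gene symbol.

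After rounding, the expected counts entered edgeR 4.0.16 (R 4.3.3): filterByExpr with a minimum count of 10, TMM, a mean for each of 5 groups over all 15 libraries (10 residual degrees of freedom, biological coefficient of variation 0.149), quasi-likelihood F test (two-sided), and calls at an adjusted p below 0.05. Each standard error was obtained by dividing the size of the log2 fold change by the root of F. The code was tested on simulated data. The alternatives used DESeq2 1.42.0 and limma 3.58.1 besides edgeR. For log2 CPM a prior count of 2 was added.

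Replicates of a group differed by far more than counting noise (chi-square per degree of freedom 7.05 to 187.5), so no library was counted as a repeat. The members and gene lists were chosen with earlier results of these data known. Named genes were the members, the 3 genes most correlated with each, up to 4 called members of each list by smallest adjusted p, and leading cell type markers. Genes named beyond this rule, such as paralogs and those ranked beside the members, were chosen after their values were seen. Values of some genes that the rule names are not reported here. Genomic positions in mm9 are not reported here, and promoter positions are in GRCm38.p6.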

Additional observations from a re-analysis of the deposited data

Results flagged for a closer look

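Gpx6 stood out for a difference between the colonized groups on chow. Its level was lower in ConvR than in GF mice by a log2 fold change of -3.24 and lower in ConvD than in GF mice by -1.09, and the test of ConvD against ConvR gave 2.15 (edgeR, adjusted p = 0.021; higher in 3 of 3 ConvD mice than in any ConvR mouse). It was called in 10 of 17 alternatives, with adjusted p from 0.000587 to 0.411 over them.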

How the results depend on the processing

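Of the members, 4 were called in ConvR against GF mice on chow, 1 in ConvD against GF, 1 in ConvD against ConvR and 3 with the colonized groups averaged. Single libraries left out gave 1 to 4, 0 to 1, 0 to 1 and 1 to 4 calls in that order. Fitted alone, the compared groups gave 0 for ConvR against GF (5 at an unadjusted p below 0.05) and 0 for ConvD against ConvR (3 unadjusted). Without ConvR chow 1 and 2 the counts were 0 for ConvR against GF (2 unadjusted), 0 for ConvD against ConvR (2 unadjusted) and 0 for the average (5 unadjusted), by edgeR. DESeq2 gave 2 calls for ConvD against GF and 2 for ConvD against ConvR. For ConvD against ConvR, limma-voom gave 0 (3 unadjusted). In that comparison limma on log2(TPM + 1) gave 3, where it called 3725 of all 12377 genes. Larger changes of the calls over all genes in the other runs are given in the last paragraph. With the length trend removed, limma gave 0 for ConvD against GF (3 unadjusted).

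All log2 fold changes of the 5 members against GF on chow stayed below 0 in every alternative run. For ConvD against ConvR, Susd4 reversed to 0.062 with no normalization factors, 0.22 on TPM, 0.037 without ConvR chow 1 and 2, and lay between -0.085 and 0.035 with single libraries left out (0.035 without ConvR chow 2, 0.004 without ConvD chow 2). Cela1 reversed to 0.23 on TPM and 0.021 with the length trend removed, and lay between -0.37 and 0.31 with single libraries left out (0.31 without ConvR chow 3), with -0.74 without ConvR chow 1 and 2. On HF/HS, TPM gave -1.76 for Gpx6 and -0.94 for Dsg1c. The causes were not tested.

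Same-numbered mice showed little common deviation (r -0.23 to 0.246 over 12 pairs, 2 above 0.1), so samples were not paired by number in the main fit. Whether such mice shared a batch was not tested. With the replicate number as a block, 2 members, Gpx6 and Cela1, were called for ConvR against GF on chow, and 368 genes in all for the average.

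Calls over all genes on HF/HS numbered 200, against 765 with no normalization factors, 515 by DESeq2, 791 on TPM, 457 with the groups alone and 16 to 280 with single libraries left out. For ConvR against GF on chow they numbered 584, against 1044 by DESeq2, 381 by voom, 937 on TPM, 0 alone (1582 unadjusted), 12 without ConvR chow 1 and 2, and 46 to 1655 with single libraries left out. For ConvD against GF they numbered 692, against 1164 by DESeq2, 11 alone, 269 with the length trend removed and 79 to 962. For ConvD against ConvR they numbered 681, against 1090 with no factors, 1121 by DESeq2, 3725 on TPM, 84 alone, 6 without ConvR chow 1 and 2 and 15 to 1611. For the average they numbered 639, against 421 with no factors, 1062 by DESeq2, 419 by voom, 139 on TPM, 28 alone, 47 without ConvR chow 1 and 2, 374 with the length trend removed and 115 to 1324. The share of calls that were higher was 54.1% for ConvR against GF on chow (40.6% with no factors, 17.1% on TPM), 40.2% for ConvD against GF (63.7%, 88.5%), 39.9% for ConvD against ConvR (73.5%, 94.6%), 38.3% for the average (54% on TPM, 50.3% with the length trend removed) and 54.5% on HF/HS (93.5%, 93.8%). On TPM the median of all genes moved to -0.104, 0.097 and 0.209 in these first 3 comparisons and to 0.157 on HF/HS, where it was 0.165 with no factors. Counts of 5 to 7 limit the precision of Gpx6 in ConvR chow mice.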
